A study of Homo sapiens with 6 samples.

Results

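The Fos genes FOS, FOSB, FOSL1 and FOSL2, the Jun genes JUN, JUNB and JUND, and the fast-response genes EGR1, IER2 and MYC were followed across RNA-seq libraries of MDA-MB-231, a triple-negative human breast cancer cell line. These 10 genes were taken by symbol from the 27745 genes of the deposited count file, and all 10 passed the filter on low counts that left 15372 genes to test. The cells had been infected with lentivirus carrying 1 of 3 short hairpin RNAs: sh-TRC, the control hairpin, or sh-MIR100HG-1 or sh-MIR100HG-2, each directed against the long non-coding RNA MIR100HG. The study's knockdown methods collect cells for RNA after 72 h, and its RNA-seq methods give no separate time. Each of the 3 groups had 2 libraries, so that 4 knockdown libraries faced 2 control libraries. All the libraries, controls included, thus came from infected cells of 1 line. The comparisons ask how these transcription factor genes stood when MIR100HG was reduced, with each hairpin and with both together.

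Fos and Jun proteins pair through leucine zippers to form AP-1, a dimeric transcription factor that binds DNA at TGACTCA or TGAGTCA sites, each the other read on the opposite strand. Fos proteins need a Jun partner, whereas Jun proteins can also pair with each other or with members of the ATF and MAF families. FOS, FOSB, JUN, JUNB, EGR1 and IER2 are immediate early genes: serum, growth factors and stress switch on their transcription within minutes, without new protein synthesis, and their mRNAs decay quickly. FOSL1, whose product is FRA-1, is a later and more lasting member that is known for its high level in mesenchymal-like triple-negative breast cancer cells, and MYC is an E-box-binding growth regulator that also responds to serum.

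The libraries held 43804736 to 64588388 counts. MIR100HG stood at 41.9 and 58.5 CPM (a counts-per-million value, scaled by edgeR's trimmed mean of M values, TMM) in control replicates 1 and 2. It stood at 15.2 and 13.2 CPM with sh-MIR100HG-1 and at 16.6 and 10.4 CPM with sh-MIR100HG-2. The target was thus lower in all 4 knockdown libraries, although this shows only which libraries are knockdown, not which hairpin was used. The mesenchymal marker VIM ran from 1607 to 2095 CPM, while of the receptor genes that define the triple-negative class ESR1 reached at most 2.79 CPM, PGR at most 0.0236 CPM, and ERBB2 lay between 71.6 and 116 CPM. Of markers of other cell types, the leukocyte gene PTPRC and the fibroblast genes DCN and LUM stayed under 3 CPM, and CD68, a lysosomal gene that tumour cells also use, lay between 163 and 254 CPM. Spearman correlation of log2 CPM was 0.982 between the controls, 0.983 between the sh-MIR100HG-1 libraries and 0.979 between the sh-MIR100HG-2 libraries. Over all genes the correlation of the controls thus lay between those of the knockdown pairs. Each control was closer to a library of another group, however: control replicate 1 reached 0.989 with sh-MIR100HG-1 replicate 1, and control replicate 2 reached 0.986 with sh-MIR100HG-2 replicate 1. The share of counts on mitochondrial genes moved in the same way, at 3.46% and 2.41% in control replicates 1 and 2, 3.30% and 3.38% with sh-MIR100HG-1, and 1.52% and 1.84% with sh-MIR100HG-2. Its part in the results was not tested, and the labels name no batch.

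FOS, FOSB and EGR1 were the members that moved, and they did so between the control replicates as well as between the hairpins. FOS and FOSB were abundant in control replicate 1 and in both sh-MIR100HG-1 libraries, and scarce in control replicate 2 and both sh-MIR100HG-2 libraries. EGR1 ran in the same direction with a smaller range. FOSL1, FOSL2, the Jun genes, IER2 and MYC differed by at most 2.53-fold between replicates of any group.

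Because these 3 genes moved together, the 250 bases upstream of their RefSeq starts are shown, read on the coding strand from RefSeq's GRCh38.p14 assembly; 8 of the 10 members had an entry, all except FOSL1 and MYC. Capitals mark the CArG box, the element bound by serum response factor, and TGACGT on either strand, the core of the cyclic AMP response element bound by CREB and ATF proteins. The FOS window is chr14:75278578-75278827 (plus strand), the FOSB window chr19:45467746-45467995 (plus strand) and the EGR1 window chr5:138465229-138465478 (plus strand).
FOS promoter: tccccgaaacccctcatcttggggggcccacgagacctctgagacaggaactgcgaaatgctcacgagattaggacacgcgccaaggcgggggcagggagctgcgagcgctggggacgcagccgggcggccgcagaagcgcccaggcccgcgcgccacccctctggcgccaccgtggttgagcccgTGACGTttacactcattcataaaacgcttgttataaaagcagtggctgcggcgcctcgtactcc
FOSB promoter: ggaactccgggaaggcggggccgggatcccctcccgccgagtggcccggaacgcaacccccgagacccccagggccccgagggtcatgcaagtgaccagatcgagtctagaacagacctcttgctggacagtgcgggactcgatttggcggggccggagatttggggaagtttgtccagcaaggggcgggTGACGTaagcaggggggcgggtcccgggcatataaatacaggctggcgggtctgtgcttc
EGR1 promoter: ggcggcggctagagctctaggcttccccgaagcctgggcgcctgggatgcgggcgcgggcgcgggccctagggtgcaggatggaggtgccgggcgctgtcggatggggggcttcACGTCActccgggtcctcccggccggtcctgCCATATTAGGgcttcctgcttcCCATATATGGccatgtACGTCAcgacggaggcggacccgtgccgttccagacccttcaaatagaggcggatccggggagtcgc

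Matches to 10 motifs were searched on both strands of the 250 bases. The background given is the share of 35116 RefSeq promoter windows of the same length that hold the motif. TGACGT lay 64 bases before the start of FOS and 60 bases before that of FOSB, and at 136 and 67 bases before that of EGR1. It was present in 5 of 8 members, the others being FOSL2 and JUND, beside 7.10% of all windows; it was singled out after the windows were read, and it is contained in TGACGTCA, which was found in JUND and in 1.65% of windows. A CArG box was present in 1 of 8 members, EGR1, which held 2 of them, 105 and 83 bases before the start, beside 1.16% of windows. TATAAA lay 33, 30 and 31 bases before the starts of FOS, FOSB and JUNB, beside 10.7% of windows. GGGCGG, the GC box bound by SP1, was in 6 of 8 members and in 42.6% of windows. The AP-1 site TGACTCA or TGAGTCA (4.2% of windows), the EGR1 site GCGTGGGCG or GCGGGGGCG (5.37%) and the E-box CACGTG (6.34%) matched in none of the 8. With any base in the middle, TGANTCA (6.57% of windows) still matched in none, and GCGNGGGCG (8.41%) matched in 1, EGR1, 198 bases before the start; these looser forms contain the stricter ones and were added after the windows were read. These are matches of letters in a short window, and no match says only that the letters are not there. Of the other genes with TGACGT, FOSB, EGR1, JUND and FOSL2 had a Pearson correlation of log2 CPM with FOS of 0.997, 0.933, 0.140 and -0.933. Any part of these letters in the expression of the genes was not tested.

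FOS, the founding partner of JUN in AP-1 (ENSG00000170345.9_2; GRCh37 chromosome 14, 75745477 to 75748933, plus strand), had 9764 counts in control replicate 1 and 180 in control replicate 2. In CPM these were 182 and 3.06, followed by 252 and 242 with sh-MIR100HG-1 and 4.23 and 6.83 with sh-MIR100HG-2. Both sh-MIR100HG-1 libraries lay above both controls, and the sh-MIR100HG-2 libraries fell between the controls, just above the lower of them. Group means were 92.4 ± 126 CPM for control, 247 ± 6.52 CPM for sh-MIR100HG-1 and 5.53 ± 1.84 CPM for sh-MIR100HG-2 (SD, n = 2 each). The control pair alone therefore spanned 59.4-fold in CPM, against 1.04-fold within sh-MIR100HG-1 and 1.61-fold within sh-MIR100HG-2. In bulk RNA, fewer cells with a transcript and less of it per cell cannot be told apart.

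FOSB, its nearest relative, whose transcript is also spliced to a truncated form known as delta-FosB (ENSG00000125740.13_2; chromosome 19, 45971253 to 45978437, plus strand), had the same high and low libraries. It stood at 216 and 2.06 CPM in the controls, at 252 and 313 CPM with sh-MIR100HG-1, and at 2.03 and 5.67 CPM with sh-MIR100HG-2. The lower control and the lower sh-MIR100HG-2 library were thus all but equal. Means were 109 ± 152, 282 ± 43.7 and 3.85 ± 2.58 CPM (SD, n = 2 each). The gene overlaps ERCC1 on the map, but they share 0 exon bases.

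EGR1, a zinc-finger factor induced through the same serum response pathway (ENSG00000120738.7_1; chromosome 5, 137801179 to 137805004, plus strand), stood at 451 and 39.3 CPM in the controls. With sh-MIR100HG-1 it stood at 281 and 174 CPM, between the controls, and with sh-MIR100HG-2 at 22.0 and 25.05 CPM, below both. Means were 245 ± 291, 228 ± 75.4 and 23.5 ± 2.14 CPM (SD, n = 2 each).

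**Figure D1:**
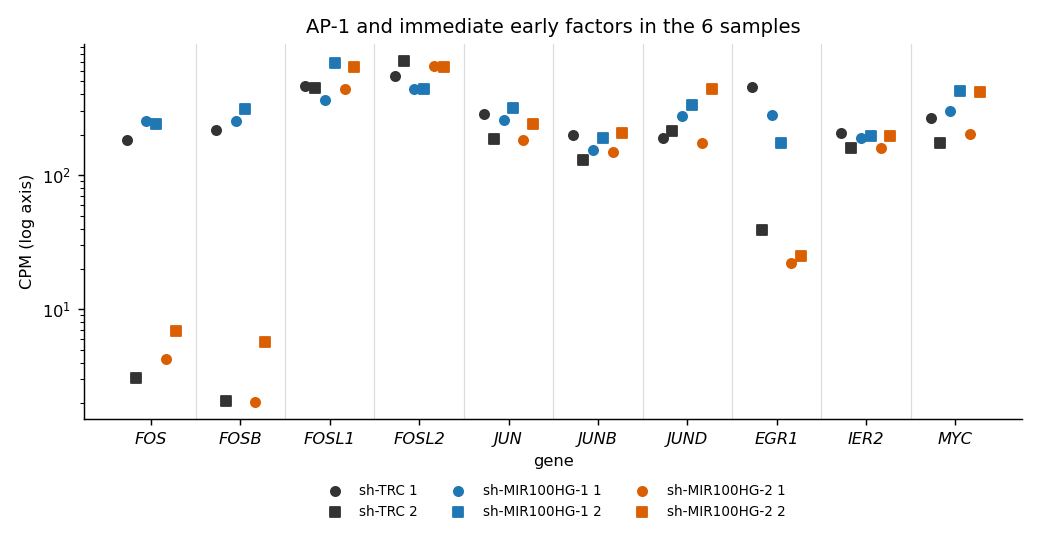
Expression of the 10 genes in each of the 6 libraries, as TMM-scaled CPM on a log axis; each point is 1 library, colours mark the 3 groups, and circles and squares are replicates 1 and 2. FOS, FOSB and EGR1 split the control pair, at 182 against 3.06 CPM for FOS, whereas the other 7 genes differ by at most 1.54-fold between the controls. Their spread is larger elsewhere, as for JUND at 174 and 440 CPM with sh-MIR100HG-2.

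Ranked over all 15372 genes by the size of the difference between the control replicates on the log2 CPM scale, FOSB was first (6.69) and FOS second (5.88), with EGR1 in place 29 (3.52). In CPM, replicate 1 exceeded replicate 2 by 105.3-fold for FOSB and 11.5-fold for EGR1. The other members differed between the controls by 1.54-fold or less. More than 2-fold higher in control replicate 1 were 3 of 10 members, beside 7.12% of all genes, and more than 2-fold lower were 0 of 10, beside 2.96%. The same held over the 30 tested genes of a list of other immediate early genes, of which 15 were more than 2-fold higher in control replicate 1 and 0 lower. DUSP1, a phosphatase that switches off MAP kinases, stood at 625 and 80.6 CPM in the controls, and ZFP36, which speeds the decay of AU-rich mRNAs, at 202 and 22.1 CPM (both genes were chosen after their values were seen).

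Against control, the 4 knockdown libraries showed no member past an adjusted p of 0.05 in the quasi-likelihood test of edgeR, adjusted over all genes by Benjamini-Hochberg, in a setting where 0 of 15372 genes (0%) passed in any of the 4 comparisons. At an unadjusted p under 0.05 the counts over all genes were 1180 for knockdown, 1056 for sh-MIR100HG-1, 1362 for sh-MIR100HG-2 and 1453 for sh-MIR100HG-2 against sh-MIR100HG-1. Wald tests in DESeq2 called 130, 66, 167 and 103 genes and no member, and edgeR's likelihood ratio test called 109, 34, 121 and 91 genes, among them 0, 0, 1 and 3 members. Of the members, 6 had a higher and 4 a lower fitted value in knockdown, with a median log2 fold change of 0.04 beside -0.04 over all genes. At an unadjusted p under 0.05 there were 0 higher, beside 3.23% of all genes, and 1 lower, beside 4.44%. The 1 was EGR1, at a log2 fold change of -1.74 (SE 0.68, adjusted p = 0.628 by edgeR). No member had knockdown and control libraries that failed to overlap, beside 8.40% of genes higher and 9.08% lower without overlap.

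The sign of the FOS and FOSB difference rested on how the libraries were averaged. The fitted log2 fold change was -1.32 (SE 0.997, adjusted p = 0.801 by edgeR) for FOS and -1.73 (SE 1.11, adjusted p = 0.753 by edgeR) for FOSB. The difference of the log2 CPM means was 0.62 and 0.54, and an exact two-sided permutation test over the 15 splits of 4 against 2 libraries gave p = 0.467 and p = 0.667. The smallest p this design allows is 0.0667, which MIR100HG reached. Leaving out control replicate 1 turned the fitted FOS value to 3.60, and leaving out control replicate 2 gave -2.30. EGR1 likewise went to 0.90 without control replicate 1 and to -2.62 without control replicate 2. Knockdown against control thus gave no direction for these genes that did not depend on which control library was kept.

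With sh-MIR100HG-1, fitted values were higher than control for 8 members and lower for 2, with a median of 0.24 beside -0.0037 over all genes. Both libraries lay above both controls for 4 members (FOS, FOSB, JUND and MYC), beside 20.3% of genes, and below for 1 (FOSL2), beside 20.2%. The log2 fold changes were 1.42 (SE 1.21) for FOS, 1.37 (SE 1.35) for FOSB and -0.11 (SE 0.82) for EGR1. At an unadjusted p under 0.05 there were 0 members higher, beside 3.10% of genes, and 1 lower, FOSL2, beside 3.77%. Without control replicate 1, FOS reached 6.33 (adjusted p = 0.0364 by edgeR), and without control replicate 2 it was 0.44.

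With sh-MIR100HG-2, 5 members were higher and 5 lower, and the median was -0.0028 beside -0.04 over all genes. Lower at an unadjusted p under 0.05 were 3 members, beside 5.15% of genes, and higher were 0, beside 3.71%. These were FOSB at a log2 fold change of -4.82 (SE 1.57, adjusted p = 0.508 by edgeR), FOS at -4.06 (SE 1.35, adjusted p = 0.508 by edgeR) and EGR1 at -3.38 (SE 0.90, adjusted p = 0.455 by edgeR). Only EGR1 was lower in both libraries than in both controls, beside 20.4% of genes, and 0 members were higher, beside 18.1%. Without control replicate 1, FOS was 0.86 and FOSB 0.91, above control, and EGR1 was -0.74. Without control replicate 2, FOS was -5.04 (adjusted p = 0.0215 by edgeR), EGR1 -4.26 (adjusted p = 0.0244 by edgeR) and FOSB -5.81 (adjusted p = 0.0534 by edgeR). Again the call lay with 1 control library.

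**Figure D2:**
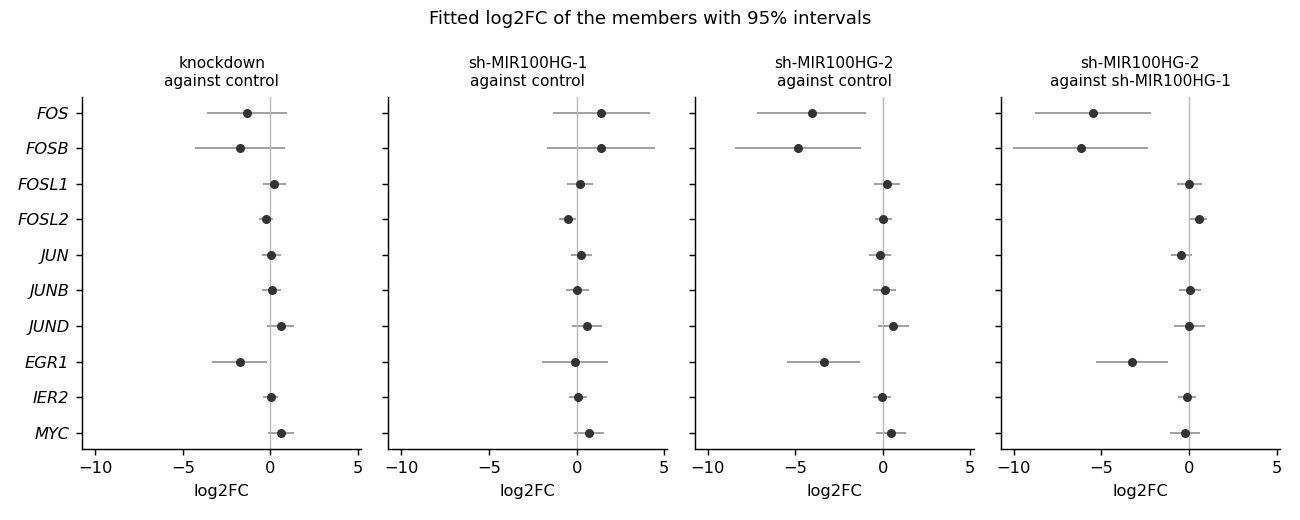
Fitted log2 fold change of each gene in the 4 comparisons, with 95% confidence intervals from edgeR's quasi-likelihood fit; 0 means no difference. The FOS, FOSB and EGR1 intervals are wider than those of the other 7 genes in each comparison, as for FOS with sh-MIR100HG-1 (-1.34 to 4.18).

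The hairpins could be set against each other without the control values entering the means. FOS was lower with sh-MIR100HG-2 than with sh-MIR100HG-1, at a log2 fold change of -5.48 (SE 1.44, adjusted p = 0.509 by edgeR). FOSB was at -6.19 (SE 1.67, adjusted p = 0.509 by edgeR) and EGR1 at -3.27 (SE 0.90, adjusted p = 0.509 by edgeR). All 3 genes showed no overlap between the hairpins. At an unadjusted p under 0.05 there were 3 members lower, beside 6.12% of genes, and 1 higher, FOSL2, beside 3.34%. Groups did not overlap for 4 members lower (FOS, FOSB, EGR1 and JUN), beside 23.3% of genes, and 1 higher (FOSL2), beside 20.6%. The control pair still entered this fit through the shared estimate of each gene's spread. Fitted on the 4 knockdown libraries alone, an alternative chosen after the data were seen, the adjusted p by edgeR was 0.0108 for FOS, 0.0321 for FOSB and 0.0340 for EGR1, among 7 genes called. Leaving out either control also takes the control pair's spread out of the fit. The spread then rests on the same 4 knockdown libraries, so such fits add no separate support.

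Over all 15372 genes, the difference between the control replicates and that between the hairpins (sh-MIR100HG-1 minus sh-MIR100HG-2), which share no library, had a Pearson r of 0.484, and 0.615 over the 12557 genes with a mean of at least 1 CPM. This is a description across genes, which are not independent replicates. FOS, FOSB and EGR1 lay at the far end of this relation.

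**Figure D3:**
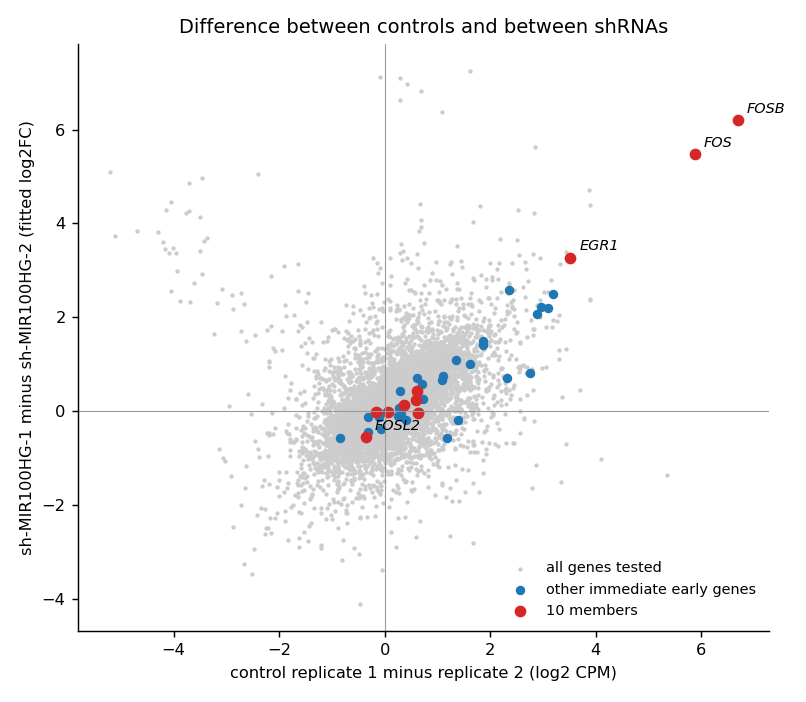
Each gene's log2 CPM difference between control replicates 1 and 2 (x axis) against the fitted log2 fold change of sh-MIR100HG-1 over sh-MIR100HG-2 (y axis); grey points are all tested genes, blue the other immediate early genes and red the 10 members. FOSB and FOS sit at the upper right, at 6.69 and 5.88 on the x axis, and the other members apart from EGR1 lie near the centre.

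FOSL1 (ENSG00000175592.8_2; chromosome 11, 65659520 to 65668044, minus strand) was even in the controls, at 465 and 445 CPM. It stood at 365 and 688 CPM with sh-MIR100HG-1 and at 436 and 638 CPM with sh-MIR100HG-2. Within each hairpin, FOSL1 lay below both controls in replicate 1 and above both in replicate 2. Its knockdown log2 fold change was 0.23 (SE 0.28, 95% interval -0.41 to 0.87). FOSL2, which encodes FRA-2 (ENSG00000075426.11_2; chromosome 2, 28615315 to 28640179, plus strand), ran against FOS. It stood at 553 and 710.1 CPM in the controls, 442 and 441 CPM with sh-MIR100HG-1, and 656 and 643 CPM with sh-MIR100HG-2. FOSL2 differed from control by -0.52 with sh-MIR100HG-1 (SE 0.21, adjusted p = 0.714 by edgeR) and by 0.04 with sh-MIR100HG-2 (SE 0.21). Between hairpins the difference was 0.56 (SE 0.21, adjusted p = 0.509 by edgeR).

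Per length, the family was led by FOSL1. In the transcripts-per-million scale (TPM), which divides counts by exon length so that genes can be ranked within a library, FOSL1 came to 944 ± 70.7 in control and FOSL2 to 344 ± 45.5, against 115 ± 158 for FOS and 79.4 ± 110.3 for FOSB (SD, n = 2). FOS and FOSB together made up 22.7% and 0.391% of the TPM of the 4 Fos genes in control replicates 1 and 2, 32.5% and 23.6% with sh-MIR100HG-1, and 0.516% and 0.727% with sh-MIR100HG-2. FOSL1 made up 51.1% to 78.4% in every library. The sum of the 4 genes ran from 1275 to 2032 TPM, so its span was far narrower than that of FOS or FOSB. RPKM values gave the same ranks of the group means. They divide by the same exon lengths, so ranks within a library cannot differ and this adds no support.

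**Figure D4:**
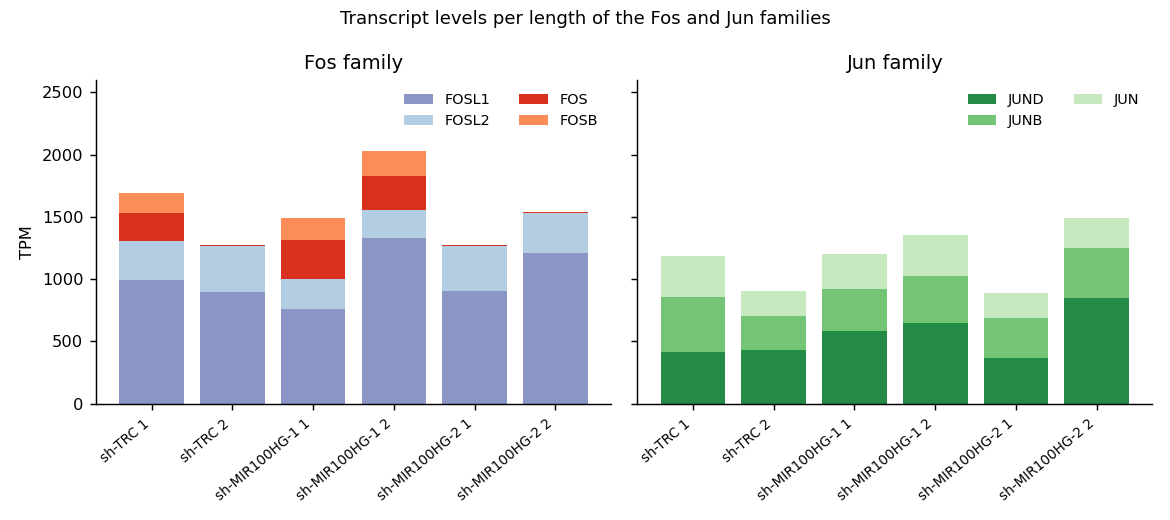
Summed TPM of the Fos genes and of the Jun genes in each library, as stacked bars that start at 0 with 1 colour per gene. FOSL1 is the main Fos gene throughout (51.1% to 78.4%), and FOS and FOSB add a visible part only in control replicate 1 and the sh-MIR100HG-1 libraries.

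JUN (ENSG00000177606.6_1; chromosome 1, 59246460 to 59249999, minus strand), the main dimer partner of Fos proteins, stood at 287 and 187 CPM in the controls, 257 and 318 CPM with sh-MIR100HG-1, and 184 and 240.4 CPM with sh-MIR100HG-2. Its 3 highest libraries were those with the most FOS, with a far smaller range. Its knockdown log2 fold change was 0.06 (SE 0.23, 95% interval -0.48 to 0.60), and that between hairpins -0.43 (SE 0.27, adjusted p = 0.597 by edgeR). JUNB, which often restrains JUN (ENSG00000171223.5_1; chromosome 19, 12902310 to 12904129, plus strand), stood at 201 and 130.02 CPM in the controls, 155 and 188 CPM with sh-MIR100HG-1, and 148 and 206 CPM with sh-MIR100HG-2. All 3 groups overlapped, with a knockdown value of 0.08 (SE 0.24, 95% interval -0.48 to 0.63). JUNB shares 259 exon bases with HOOK2 on the opposite strand, and the strand setting of the counting is not given in the sources used here, so part of its counts may belong there; HOOK2 itself had 324 to 826 counts.

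JUND (ENSG00000130522.5_2; chromosome 19, 18390570 to 18392432, minus strand), the Jun gene that is expressed broadly without a stimulus, stood at 190.5 and 214 CPM in the controls, 276 and 332 CPM with sh-MIR100HG-1, and 174 and 440.0 CPM with sh-MIR100HG-2. Both sh-MIR100HG-1 libraries exceeded the controls, whereas the sh-MIR100HG-2 libraries lay on either side. The knockdown value was 0.60 (SE 0.34, 95% interval -0.18 to 1.37, adjusted p = 0.717 by edgeR). In TPM, JUND had the highest control mean of the Jun genes at 424 ± 16.0, ahead of JUNB at 358 ± 123 and JUN at 264 ± 89.8 (SD, n = 2), and these neighbours overlapped within that spread. In control replicate 1 JUNB was the highest, at 445 TPM against 413 for JUND. JUND made up 34.8% to 56.6% of the summed Jun TPM, and it stood second to FOSL1 among the 10 genes in every group. Below them in control came FOSL2, EGR1 at 314 ± 377, MYC at 288 ± 95.9, JUN and IER2 at 233 ± 52.7 TPM, neighbours that did not differ beyond their spread, with FOS and FOSB last. With sh-MIR100HG-1 FOS moved up to place 6 at 289 ± 23.6 TPM, close to JUN at 306 ± 29.3 and EGR1 at 277 ± 106, while FOSB stayed last at 192 ± 19.2. With sh-MIR100HG-2 the last places were EGR1 at 28.1 ± 0.688, FOS at 6.35 ± 1.71 and FOSB at 2.55 ± 1.57 TPM, far below the 7 other genes (SD, n = 2).

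IER2, a short-lived nuclear protein gene of the serum response (ENSG00000160888.6_1; chromosome 19, 13261229 to 13265722, plus strand), had the narrowest range of the 10 over these libraries, as a ratio of highest to lowest CPM. It stood at 206 and 159 CPM in the controls, 189 and 196 CPM with sh-MIR100HG-1, and 159 and 195 CPM with sh-MIR100HG-2. Its knockdown log2 fold change was 0.01 (SE 0.19), with a 95% interval of -0.43 to 0.46. IER2 thus varied far less than FOS and FOSB in the same libraries, although all 3 are immediate early genes.

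MYC (ENSG00000136997.15_1; chromosome 8, 128747680 to 128753680, plus strand) stood at 265 and 174 CPM in the controls, 299.9 and 428 CPM with sh-MIR100HG-1, and 201 and 414 CPM with sh-MIR100HG-2. Only 1 of the 4 knockdown libraries fell within the range of the controls. The knockdown log2 fold change was 0.61 (SE 0.33, 95% interval -0.14 to 1.36, adjusted p = 0.702 by edgeR), and the exact permutation p was 0.2. With sh-MIR100HG-1 the value was 0.73 (SE 0.37, adjusted p = 0.734 by edgeR) and with sh-MIR100HG-2 it was 0.49 (SE 0.37, adjusted p = 0.707 by edgeR).

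Genes around the members were taken from 7 lists, and no gene of any list passed the adjusted threshold in edgeR. In the list of other immediate early genes (30 of 31 tested, NPAS4 not), 1 was higher and 2 lower in knockdown at an unadjusted p under 0.05, beside 3.23% and 4.44% of all genes, with a median of -0.08 beside -0.04. These counts are close to what those shares give of 30 genes, and the genes are named by rule. The EGR1 relative EGR2 stood at 5.38 and 0.765 CPM in the controls and 0.176 to 0.693 CPM in the knockdown libraries, at a log2 fold change of -2.56 (SE 0.73, adjusted p = 0.493 by edgeR). ZFP36L2, an mRNA decay factor, stood at 155 and 128 CPM against 88.1 to 111 CPM (-0.51, SE 0.19, adjusted p = 0.615 by edgeR). DUSP2, a MAP kinase phosphatase present at a trace level, stood at 0.372 and 0.476 CPM against 1.05 to 1.19 CPM (1.396, SE 0.45, adjusted p = 0.554 by edgeR). These 3 genes had all 4 knockdown libraries on 1 side of both controls. Of the 30 genes, 2 were higher and 4 lower without overlap, beside 8.40% and 9.08% of all genes.

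Between hairpins the same 30 genes had 9 lower and 0 higher with sh-MIR100HG-2 at an unadjusted p under 0.05, beside 6.12% and 3.34% of all genes, with a median of -0.51 beside -0.01 over all genes. Groups did not overlap for 13 lower and 4 higher, beside 23.3% and 20.6% of all genes. The 9 were NR4A1, NR4A2, CSRNP1, DUSP1, EGR3, KLF10, KLF2, ZFP36 and PPP1R15A, picked here by that p. DUSP1 stood at 562 and 935 CPM with sh-MIR100HG-1 and 79.7 and 243 CPM with sh-MIR100HG-2, a log2 fold change of -2.21 (SE 0.85, adjusted p = 0.509 by edgeR). The stress-related factor PPP1R15A, at 673 and 185 CPM in the controls, stood at 691 and 791 against 245 and 284 CPM. As with FOS, for each of these genes control replicate 1 was the higher control.

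Among 13 tested AP-1 partners of the ATF, MAF and BATF families (MAF not tested), 6 were higher and 7 lower in knockdown and 0 had an unadjusted p under 0.05, beside 3.23% of all genes higher and 4.44% lower. The smallest p belonged to MAFA, a transcription factor of pancreatic beta cells, at 0.0661 to 0.561 CPM (log2 fold change -1.15, SE 0.72, adjusted p = 0.742 by edgeR). ATF3, a stress-induced partner of JUN that was chosen after its values were seen, stood at 267 and 26.7 CPM in the controls, 186 and 354 CPM with sh-MIR100HG-1, and 17.7 and 43.4 CPM with sh-MIR100HG-2. Its 3 high and 3 low libraries were thus those of FOS. Of 20 upstream kinases and serum response factors, 12 were higher and 8 lower with a median of 0.19 beside -0.04 over all genes, and 1 had an unadjusted p under 0.05, a higher gene, beside 3.23%. ELK4, a partner of serum response factor at CArG boxes, stood at 77.4 and 54.7 CPM in the controls against 79.6 to 104 CPM in knockdown (0.49, SE 0.21, adjusted p = 0.642 by edgeR). In the list of 6 EGR1 corepressors and turnover regulators, 1 had an unadjusted p under 0.05, a higher gene, beside the same 3.23%. This was FBXW7, the ubiquitin ligase subunit that marks JUN and MYC proteins for decay. It stood at 31.4 and 26.2 CPM in the controls against 49.1 to 58.9 CPM in knockdown (0.86, SE 0.20, adjusted p = 0.446 by edgeR). FBXW7 was 1 of 2 genes of this list with all 4 knockdown libraries above both controls, beside 8.40% of all genes. In 0 genes of the list did all 4 lie below, beside 9.08%.

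In the MYC network (11 of 12 tested, MYCN not), 2 genes were higher and 1 lower in knockdown at an unadjusted p under 0.05, beside 3.23% and 4.44% of all genes. MXD1, which competes with MYC for MAX, stood at 33.5 and 31.3 CPM in the controls and at 33.6 to 80.7 CPM in knockdown (0.89, SE 0.36, adjusted p = 0.642 by edgeR). MLX, a MAX-like dimer partner, stood at 63.7 and 71.8 against 78.8 to 119 CPM (0.51, SE 0.20, adjusted p = 0.632 by edgeR). MLXIPL, the glucose-responsive partner of MLX, stood at 3.84 and 3.28 against 1.17 to 2.39 CPM (-1.06, SE 0.32, adjusted p = 0.522 by edgeR). Of 20 MYC target genes, 16 were higher and 4 lower with a median of 0.17 beside -0.04 over all genes, and 0 had an unadjusted p under 0.05, beside 3.23% and 4.44%. The smallest p was that of SRM, the spermidine synthase gene, at 74.3 and 103 CPM in the controls against 99.5 to 163 CPM (0.44, SE 0.23, adjusted p = 0.691 by edgeR).

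Of 20 AP-1 target genes 16 were tested (MMP3, MMP10, SPP1 and IVL not), and 2 were higher and 1 lower in knockdown at an unadjusted p under 0.05, beside 3.23% and 4.44% of all genes. AXL, a receptor tyrosine kinase gene, stood at 999 and 1246 CPM in the controls against 1438 to 1551 CPM (0.42, SE 0.18, adjusted p = 0.642 by edgeR). HMOX1, the haem oxygenase gene, stood at 13.6 and 10.9 against 14.3 to 27.5 CPM (0.82, SE 0.31, adjusted p = 0.615 by edgeR). MMP1, a collagenase gene whose promoter carries an AP-1 site, stood at 3.95 and 4.38 against 1.16 to 3.84 CPM (-1.09, SE 0.44, adjusted p = 0.639 by edgeR). Between hairpins 3 of these genes were higher with sh-MIR100HG-2 and 0 lower at that p, beside 3.34% and 6.12% of all genes. The 3 were CD44, PLAUR and TIMP1, which were chosen after their values were seen. TIMP1, an inhibitor of metalloproteinases, stood at 390.2 and 1037 CPM in the controls, 333 and 309 CPM with sh-MIR100HG-1, and 951 and 566 CPM with sh-MIR100HG-2, so that it was high in the libraries where FOS was low.

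Over the 6 libraries, the genes most like FOS by Pearson correlation of log2 CPM were FOSB (0.997), CCDC17 (0.997), KLF9 (0.995), DDX39B (0.994) and CCNL1 (0.993). Among the members, EGR1 stood at 0.933, JUN at 0.888, IER2 at 0.763 and MYC at 0.523 to FOS, with JUNB at 0.448, JUND at 0.140, FOSL1 at 0.0175 and FOSL2 at -0.933. Most like FOSL1 were DHDDS (0.997), PRDM2 (0.996), OXSR1 (0.992), ZMAT2 (0.991) and TMEM243 (0.990), and most like MYC were SESN2 (0.996), DHCR7 (0.996), EIF1 (0.995), ACO1 (0.994) and TMEM234 (0.993). These are the highest of many correlations over 6 points that share library and depth, and they are given as a description.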

How the data were processed

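Total RNA of 6 MDA-MB-231 libraries in 3 groups of 2 was extracted with TRIzol and sequenced. Per the labels and methods, the authors aligned reads with STAR (2.5.2a in the submitters' processing notes) to GRCh37 and assigned them to exons of GENCODE genes with FeatureCounts. Values are the deposited raw counts per gene, and strand and multimapping settings are not given in the sources used here. The deposited exon length (another column) served for TPM. Columns of values without a sample numbered 0. Of 27745 genes, 26966 IDs matched a symbol. Genes with under 5 counts in at least 3 of 6 libraries were removed (12373), leaving 15372.

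CPM, TPM and log2 CPM (prior count 2) were computed here. The main test was edgeR 4.0.16's quasi-likelihood F-test with TMM factors and all 6 libraries in one fit of 3 groups. It had 3 residual and 5.37 prior degrees of freedom, a common biological coefficient of variation of 27.8%, and Benjamini-Hochberg adjustment over all tested genes. The knockdown value is the mean of both hairpins. Standard errors are the fold change divided by the root of F. The fit was tested on simulated data. DESeq2 1.42.0, edgeR's likelihood ratio test, other filters and scalings, a replicate block and leaving out each library were alternatives (R 4.3.3, Python 3.11.15).

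The study describes the knockdown pairs as biological replicates, and the sources used here do not say this of the controls, so p-values measure only the spread between these samples, which may be technical. The members and gene lists were chosen with earlier results of these data known. Named genes were the members, MIR100HG, from each list up to 2 genes higher and 2 lower in knockdown with the smallest p under 0.05 (otherwise the smallest p), and the 5 genes most correlated with FOS, FOSL1 and MYC. A name outside the rule is said to be chosen after values were seen.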

Additional observations from a re-analysis of the deposited data

Results flagged for a closer look

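For 4 of the 10 genes, both libraries of 1 hairpin lay on 1 side of the control mean of log2 CPM and both libraries of the other hairpin on the opposite side. The share of all genes that meet this rule was not computed, so the count is not read as a trait of these genes. The rule requires hairpins without overlap, which held for 23.3% of all genes lower and 20.6% higher with sh-MIR100HG-2. The difference between hairpins (sh-MIR100HG-2 minus sh-MIR100HG-1, log2) was -5.48 for FOS, -6.19 for FOSB, -3.27 for EGR1 and 0.56 for FOSL2. The direct edgeR quasi-likelihood test of that difference gave an adjusted p of 0.509 for each of them. FOS lay 3.41 and 3.35 above the control mean with sh-MIR100HG-1 and at -2.47 and -1.79 from it with sh-MIR100HG-2, and FOSB lay 3.56 and 3.88 above it and at -3.37 and -1.90. EGR1 lay 1.08 and 0.39 above it and at -2.59 and -2.41. Its fitted log2 fold change with sh-MIR100HG-1 was -0.11, however, and both sh-MIR100HG-1 libraries lay between the controls. FOSL2 had the other order, at -0.50 and -0.51 with sh-MIR100HG-1 and 0.07 and 0.04 above it with sh-MIR100HG-2. For FOS, FOSB and EGR1 the control mean is itself midway between controls that differed by 5.88, 6.69 and 3.52 on this scale, and the cause of that difference was not tested.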

How the results depend on the processing

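With 2 libraries in each group, the controls set the precision of the FOS, FOSB and EGR1 results. Of the alternative values of the members' fold changes, 500 kept direction and side of the threshold, 27 passed it and 53 turned direction. Where a left-out library left a group with 1, that sample was assumed to vary like the other groups. The cause of the changes below was not tested, except that leaving out a control or fitting the knockdown libraries alone (chosen after seeing the data) takes the control pair's spread out of the estimate.

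Genes with an adjusted p at or below 0.05 numbered 392 for knockdown, 227 for sh-MIR100HG-1, 517 for sh-MIR100HG-2 and 679 between hairpins without the filter on low counts, where the fit no longer used each gene's own spread. DESeq2 gave 130, 66, 167 and 103, edgeR's likelihood ratio test gave 109, 34, 121 and 91, and the comparison gave 7 between hairpins on the knockdown libraries alone. Members so called numbered 3, 2, 3 and 3 without the filter, 1 for sh-MIR100HG-2 and 3 between hairpins with the likelihood ratio test, and 3 on the knockdown libraries alone. Members with an unadjusted p under 0.05 went from 1 to 5 without the filter for knockdown and for sh-MIR100HG-1, and from 1 to 0 for knockdown in DESeq2 or with knockdown and control as 2 groups. The share of all genes at that p was not computed for these settings, so the counts are not read as results about the members.

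The labels give same-numbered libraries a shared number and state nothing more. Their deviations from the group means correlated at -0.21 for control with sh-MIR100HG-1, 0.0063 for control with sh-MIR100HG-2 and 0.44 between hairpins. Same-numbered knockdown libraries thus deviated together in part. FOSB, FOSL1, JUN, JUNB, JUND, IER2 and MYC were higher in replicate 2 than in replicate 1 with both hairpins. FOS, FOSL2 and EGR1 were not, and the cause was not tested. With the replicate block, 0 genes passed the adjusted threshold in each comparison, and members with an unadjusted p under 0.05 went from 1 to 0 for knockdown and from 3 to 1 for sh-MIR100HG-2. The share of all genes at that p was not computed with the block. The block turned EGR1 to 0.36 with sh-MIR100HG-1 and JUND to -0.092 between hairpins, and it changed no other direction.

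Fitted as 2 groups, the knockdown value was 0.45 for FOS and 0.39 for FOSB. Scaling by library totals gave -0.035 for JUN, -0.018 for JUNB and -0.073 for IER2 in knockdown, -0.019 for JUNB with sh-MIR100HG-1, -0.058 for FOSL2 and -0.017 for JUNB with sh-MIR100HG-2, and -0.0099 for FOSL1 and -0.041 for JUND between hairpins. A 1 CPM filter gave -0.0046 for IER2 in knockdown and -0.0029 for JUND between hairpins.

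Leaving out each library in turn, knockdown values ran from -2.30 to 3.60 for FOS, -2.71 to 4.004 for FOSB, -0.038 to 0.42 for FOSL1, -0.22 to 0.40 for JUN, -0.20 to 0.42 for JUNB, -2.62 to 0.90 for EGR1 and -0.16 to 0.21 for IER2. With sh-MIR100HG-1 they ran from -0.33 to 0.60 for FOSL1, -0.00036 to 0.62 for JUN, -0.23 to 0.40 for JUNB, -0.99 to 2.53 for EGR1 and -0.10 to 0.28 for IER2. With sh-MIR100HG-2 they ran from -5.04 to 0.86 for FOS, -5.81 to 0.91 for FOSB, -0.068 to 0.49 for FOSL1, -0.13 to 0.23 for FOSL2, -0.44 to 0.18 for JUN, -0.18 to 0.45 for JUNB, -0.23 to 1.12 for JUND, -0.22 to 0.15 for IER2 and -0.13 to 0.92 for MYC. Between hairpins they ran from -0.36 to 0.57 for FOSL1, -0.21 to 0.27 for JUNB, -0.81 to 0.53 for JUND, -0.27 to 0.018 for IER2, -0.85 to 0.19 for MYC and -0.45 to 0.22 for MIR100HG. Members with an unadjusted p under 0.05 ran from 0 to 3 in knockdown, 0 to 4 with sh-MIR100HG-1, 1 to 4 with sh-MIR100HG-2 and 3 to 5 between hairpins. Genes past the adjusted threshold ran from 0 to 3, 0 to 4 and 0 to 7 in the last 3 comparisons, and members from 0 to 1, 0 to 2 and 0 to 3.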

Other observations

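On the 4 knockdown libraries alone, edgeR's quasi-likelihood test called 7 genes between the hairpins, all lower with sh-MIR100HG-2. Beside FOS, FOSB and EGR1 these were HES1, a Notch target and repressor (log2 fold change -4.72), CCNL1, a cyclin of RNA processing (-2.77), NEAT1, the long non-coding RNA of paraspeckles (-2.54), and the gene with the identifier ENSG00000264112 (-2.66). These 4 were chosen after their values were seen.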
